A study of Mus musculus with 6 samples.

Results

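TRAIL is a death-inducing ligand of the tumour necrosis factor (TNF) family. The genes described here encode TRAIL, receptors that bind it and a related receptor. They are the chromosome 7 receptor genes Tnfrsf22, Tnfrsf23 and Tnfrsf26, the signalling receptor gene Tnfrsf10b and the ligand gene Tnfsf10, which makes 5 of the 55487 genes in the deposited count table. They were chosen by symbol, with the high levels of Tnfrsf22 and Tnfrsf23 after deletion of Setdb1 already known, so their values are given as a description and no p-value is used for them. RNA was sequenced from muscle stem cells of 10-week-old mice, 60 h after cardiotoxin (CTX), which is injected to damage muscle and so set off regeneration. The tested mice were labelled Setdb1 knockout (KO) and were given tamoxifen (3 libraries), and the control mice were labelled wild type (WT) and were given oil (3 libraries). Genotype and tamoxifen changed together and cannot be told apart, and the promoter that drives recombination is not given in the sources used here. Setdb1 encodes a histone H3 methyltransferase that acts in gene silencing.

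TRAIL kills cells by binding a receptor whose cytoplasmic death domain recruits the adaptor FADD and caspase-8. In the mouse, Tnfrsf10b encodes the receptor that carries this death domain. Tnfrsf22 and Tnfrsf23 encode receptors that bind TRAIL but have no death domain, and they are therefore known as decoy receptors. Tnfrsf26 encodes a related receptor of the same cluster.

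The 3 chromosome 7 genes lay side by side on the minus strand within 78.2 kb (GRCm38 coordinates, GENCODE release M21). Tnfrsf26 (ENSMUSG00000045362) spanned 143607659 to 143628722, Tnfrsf22 (ENSMUSG00000010751) began 6.1 kb further on and spanned 143634806 to 143649661, and Tnfrsf23 (ENSMUSG00000037613) followed after 16.1 kb, from 143665809 to 143685872. Tnfrsf10b (ENSMUSG00000022074) lay on chromosome 14 (69767472 to 69784411, plus strand) and Tnfsf10 (ENSMUSG00000039304) on chromosome 3 (27317028 to 27342427, plus strand). The longest multi-exon coding sequences annotated were 594 bases for Tnfrsf22, 528 for Tnfrsf23 and 612 for Tnfrsf26, and 1143 for Tnfrsf10b, which also encodes the death domain.

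Tnfrsf22 and Tnfrsf23 are near copies of each other. Exons 2, 3, 4 and 5 of their coding transcripts had the same lengths (91, 129, 112 and 74 bases) and were identical at 83.5%, 93.8%, 90.2% and 100% of positions. Tnfrsf26 shared the lengths of exons 3 and 4 with Tnfrsf22 but was identical at only 46.5% and 52.7% of their positions. Exon 3, a coding exon of all 3 genes, is shown because it bears on how reads can be assigned. Capitals mark bases that differ from Tnfrsf22 at the same position of the ungapped alignment, in the direction of transcription (chr7:143643276-143643404, chr7:143679945-143680073 and chr7:143618310-143618438 in the order shown, minus strand, GRCm38, from the GENCODE M21 transcripts).
Tnfrsf22: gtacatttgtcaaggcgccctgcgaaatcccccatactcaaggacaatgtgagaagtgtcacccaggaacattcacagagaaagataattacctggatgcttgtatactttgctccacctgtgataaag
Tnfrsf23: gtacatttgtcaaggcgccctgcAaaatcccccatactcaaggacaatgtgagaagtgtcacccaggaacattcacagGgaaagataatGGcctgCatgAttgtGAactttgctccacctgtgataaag
Tnfrsf26: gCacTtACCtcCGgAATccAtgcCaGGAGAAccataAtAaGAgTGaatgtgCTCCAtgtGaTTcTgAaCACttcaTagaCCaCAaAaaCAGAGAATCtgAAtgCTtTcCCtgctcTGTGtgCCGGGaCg
Tnfrsf23 differed from Tnfrsf22 at 8 of the 129 bases, with an identical stretch of 54 bases. Tnfrsf26 differed at 69, with no identical stretch longer than 6 bases.

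Over whole transcripts, 17.3% of the distinct 50-base words of Tnfrsf22 were found in Tnfrsf23, and 18% of those of Tnfrsf23 in Tnfrsf22. At 75 bases, the read length in the labels, the shares were 12.6% and 13.1%. Words of Tnfrsf22 found in any other gene made up 27.4% at 50 bases. Tnfrsf26 shared no 50-base word with either. The division of reads between Tnfrsf22 and Tnfrsf23 is therefore uncertain, and their summed counts are given as well. The antisense gene E230032D23Rik overlapped exons of Tnfrsf23 over 164 bases and of Tnfrsf26 over 107 bases. The strand setting of the counting is not given in the sources used here, and E230032D23Rik itself received at most 2 counts in any library.

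Tnfrsf22 was higher in all KO libraries. It had 240, 314 and 338 counts in the KO libraries, which is 63.8, 64.5 and 66.1 CPM (counts scaled to the effective library size), against 41, 39 and 50 counts, or 8.21, 8.14 and 9.24 CPM, in the control libraries. The groups stood far apart and the KO libraries were close to each other, with an SD of 1.8% of the mean. The mean level was 64.8 ± 1.14 CPM in KO cells and 8.53 ± 0.61 CPM in control cells (SD, n = 3 each). On the log2 scale the difference, KO over control, was 2.92 (SE 0.14).

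Tnfrsf23 behaved alike at a lower control level. It had 226, 269 and 262 counts, or 60.1, 55.2 and 51.2 CPM, in the KO libraries, against 20, 27 and 28 counts, or 4.01, 5.64 and 5.17 CPM, in the control libraries. Again no KO library came near a control library. The mean was 55.5 ± 4.46 CPM in KO cells and 4.94 ± 0.84 CPM in control cells, a log2 fold change of 3.48 (SE 0.17). By size of increase Tnfrsf23 stood at place 17 and Tnfrsf22 at place 24 of 11224 genes with enough counts to test. In these bulk samples, more cells carrying a transcript and more transcript per cell cannot be told apart.

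Tnfrsf26 was barely detected. It had 6, 17 and 8 counts in the KO libraries against 0, 1 and 2 counts in the control libraries, and was too low for the default filter on low counts. The groups did not overlap here either. Summed over libraries and corrected for library size, the 31 KO counts against 3 control counts gave a ratio of 11.4 (exact 95% interval 3.56 to 58.4, counting error only). The sum over the 3 clustered genes does not depend on how reads were divided among them. It can still depend on whether reads that match several genes, in or outside the cluster, were kept. The sum was 472, 600 and 608 counts in the KO libraries against 61, 67 and 80 in the control libraries. Its log2 fold change was 3.16 (SE 0.13).

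**Figure D1:**
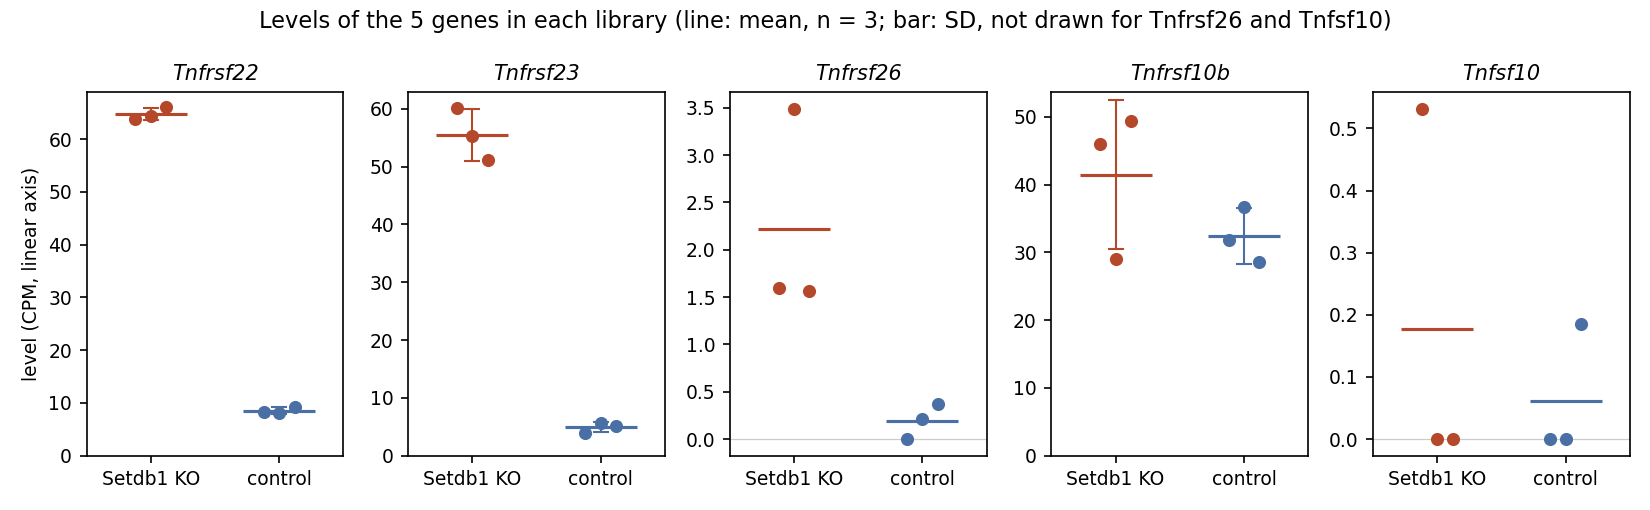
Level of each of the 5 genes in CPM (linear axis, own scale per gene) in the 3 Setdb1 KO and 3 control libraries. Points are libraries, lines are means and bars are SD, which are not drawn for Tnfrsf26 and Tnfsf10 because of their low counts. The groups stand apart for Tnfrsf22, Tnfrsf23 and Tnfrsf26 and overlap for Tnfrsf10b and Tnfsf10.

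The signalling receptor gene Tnfrsf10b was well expressed in both groups. It had 46.0, 29.0 and 49.4 CPM in the KO libraries against 31.8, 36.7 and 28.6 CPM in the control libraries. The groups overlapped, since KO library 2 lay below 2 of the 3 control libraries. The mean was 41.5 ± 10.97 CPM in KO cells and 32.4 ± 4.08 CPM in control cells, with a log2 fold change of 0.36 (SE 0.19). The value ranged from 0.19 without KO library 3 to 0.56 without KO library 2.

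The ligand gene Tnfsf10 was at the limit of detection. It had 2 counts in KO library 1 and 1 count in control library 3, and none in the others. Both groups were at or under a floor of 3 counts over the group, so no fold change is given, and a difference was not detectable at this depth.

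Of the 5 genes, 3 passed the filter on low counts (Tnfrsf22, Tnfrsf23 and Tnfrsf10b). Over all tested genes edgeR called 2.22% higher in KO (adjusted p under 0.05). Groups did not overlap, with KO higher, for 3 of the 5 genes, beside 12.8% of tested genes. Nothing is read from this count, as the choice of the genes used the same comparison.

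Per length, the order of the receptor genes differed between the groups. In KO cells the level per kb of annotated exon was 15.4 ± 0.27 CPM per kb for Tnfrsf22, 14.01 ± 1.13 for Tnfrsf23, 7.61 ± 2.01 for Tnfrsf10b and 0.69 ± 0.34 for Tnfrsf26. Tnfrsf22 and Tnfrsf23 were within their spread of each other there, as KO library 1 had 15.1 and 15.2 CPM per kb of the 2 genes. In control cells Tnfrsf10b came first with 5.95 ± 0.75 CPM per kb, followed by Tnfrsf22 with 2.02 ± 0.15, Tnfrsf23 with 1.25 ± 0.21 and Tnfrsf26 with 0.06 ± 0.058. The ranges of Tnfrsf22 (1.93 to 2.19 CPM per kb) and Tnfrsf23 (1.01 to 1.42 CPM per kb) did not meet in the control libraries. These orders rest on the length used, the union of all annotated exons (4217 bases for Tnfrsf22 and 3962 for Tnfrsf23). In the coding transcripts the last exon had 3629 bases for Tnfrsf22 but 979 for Tnfrsf23, so a transcript length would raise Tnfrsf23. Levels over other lengths were not computed.

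The 2 decoy genes together reached 3.59, 5.50 and 3.15 times the level of Tnfrsf10b per kb in the KO libraries, against 0.51, 0.50 and 0.67 times in the control libraries. Over this exon length, the summed decoy level per kb was thus above that of the signalling receptor in each KO library and below it in each control library. The order in the control libraries may change with a shorter length for Tnfrsf23. The spread of this ratio among KO libraries followed Tnfrsf10b more than the decoys, whose summed level per kb was 30.3, 29.2 and 28.6 CPM per kb in KO libraries 1, 2 and 3. Within the pair, Tnfrsf22 took 51.5%, 53.9% and 56.3% of the counts in the KO libraries and 67.2%, 59.1% and 64.1% in the control libraries, shares that depend on how reads common to both genes were assigned.

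**Figure D2:**
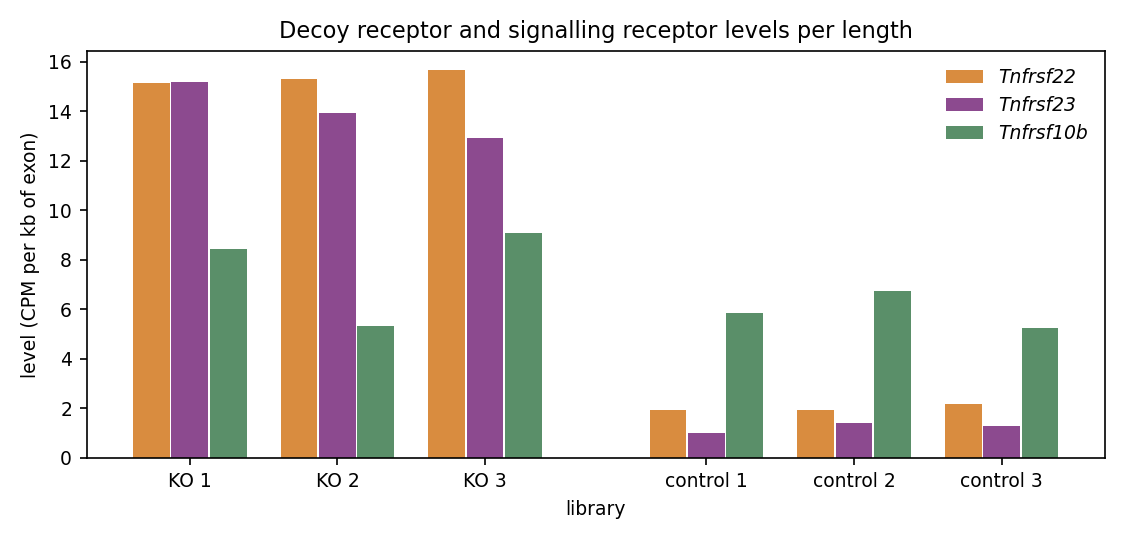
Level per kb of annotated exon (CPM per kb) of Tnfrsf22, Tnfrsf23 and Tnfrsf10b in each library, KO libraries at the left and control libraries at the right. Over this length, both decoy genes are above Tnfrsf10b in every KO library, and below it in every control library.

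Setdb1 itself was at 16.5, 12.7 and 14.7 CPM in KO libraries against 34.8, 40.5 and 32.1 CPM in control libraries (log2 fold change -1.30, SE 0.16, edgeR adjusted p = 2.092e-04). Total counts per library ran from 4052569 to 5178823 in KO cells and from 4568845 to 5690844 in control cells, of which the gene with the most counts took 28.6% to 38.4%. All 10 muscle stem cell markers examined had counts, 1 of the 10 was called higher, beside 2.22% of all tested genes, and their summed level was 1637 to 2077 CPM in KO and 1436 to 1524 CPM in control libraries, without overlap. Summed myofibre markers (8 genes, 2 of 4 tested called higher, beside the same 2.22%) were at 87.2 to 114 CPM in KO against 46.4 to 64.3 CPM in control libraries, led by Actn3, and all 8 were detected. Summed mural markers (7 genes, 2 of 6 tested called higher, beside 2.22%) were at 170 to 218 CPM in KO against 93.9 to 127 CPM in control libraries, and all 7 were detected. The most abundant were Acta2 and Notch3, of which Notch3 was not called (edgeR adjusted p = 0.166). The part of these cell types in the levels of Tnfrsf22 and Tnfrsf23 was not tested. Neutrophil markers (8 genes) summed to 2.13, 610 and 231 CPM in KO libraries 1, 2 and 3 and to 0.80, 1.46 and 1747 CPM in control libraries 1, 2 and 3, led by S100a9 and Ngp. Without control library 3 and KO library 1, the log2 fold changes of Tnfrsf22 and Tnfrsf23 were 2.99 and 3.46. The libraries kept still differed in neutrophil markers, with 610 and 231 CPM in KO against 0.80 and 1.46 CPM in control libraries. This fit therefore does not bear on the part of neutrophils in these levels, which was not tested. Lymphocyte and natural killer cell markers summed to 1.76 to 4.52 CPM in KO and 0.63 to 3.51 CPM in control libraries, and Gzma was among those at 0. Summed fibro-adipogenic markers overlapped between KO (1291 to 1817 CPM) and control libraries (608 to 1387 CPM), as did macrophage, endothelial, Schwann and erythroid markers (10.1 to 37.6, 12.3 to 18.1, 95.9 to 124 and 4.10 to 6.57 CPM in KO, against 10.0 to 88.1, 5.85 to 13.4, 90.5 to 118 and 3.34 to 5.17 CPM in control libraries). The erythroid markers Hba-a2 and Hbb-bt were among those at 0.

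The start region of Tnfrsf23 is shown because both decoy genes were high together. It runs from 250 bases before to 50 after the annotated start (RefSeq, GRCm38.p6, chr7:143685826-143686125, minus strand). Of the 5 genes, the RefSeq table of start regions held Tnfrsf23 and Tnfsf10. Capitals mark matches, on either strand, to CCAAT, to the GC box GGGCGG and to TATAAA, which do not overlap.
Tnfrsf23 start region: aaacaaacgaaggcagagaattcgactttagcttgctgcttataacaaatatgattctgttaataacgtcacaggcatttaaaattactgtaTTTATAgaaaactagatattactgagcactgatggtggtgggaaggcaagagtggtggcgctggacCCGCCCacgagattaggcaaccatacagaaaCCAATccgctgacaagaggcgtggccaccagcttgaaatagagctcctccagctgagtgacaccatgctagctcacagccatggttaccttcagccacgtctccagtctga
Each motif was found 1 time. Among all 32851 start regions, CCAAT was found in 37.4%, GGGCGG in 35.7% and TATAAA in 13.6%. The region held 9 CG dinucleotides, against a median of 7 over all start regions, and 45.8% of start regions held at least as many.

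None of the tested genes around the cluster passed the threshold. The region lies in a part of chromosome 7 known for imprinted genes. In all, 61 further genes in the table lay within 1 Mb, and 14 of them had enough counts to test. The count of calls was 0 in either direction with edgeR, DESeq2 and limma-voom (at an unadjusted p under 0.05 in edgeR, 2 were higher and 0 lower), beside 2.83% of all tested genes. Their median log2 fold change was 0.03, against 0.01 over all tested genes, and these ran from -0.42 to 0.62. The nearest gene beyond Tnfrsf23 was Osbpl5, a lipid transfer protein gene 2.89 kb away. It had 30.3, 25.1 and 27.9 CPM in KO libraries against 22.0, 20.9 and 18.8 CPM in control libraries. The groups did not overlap, but the log2 fold change of 0.43 (SE 0.15) did not pass (edgeR adjusted p = 0.141). Groups did not overlap, with KO higher, in 3 of the 14 neighbours, beside 12.8% of all tested genes.

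On the other side, Cars, a cysteinyl-tRNA synthetase gene 7.57 kb from Tnfrsf26, was at 55.8 ± 1.37 CPM in KO and 52.2 ± 3.38 CPM in control cells (edgeR adjusted p = 0.698). Nap1l4, a histone chaperone gene 58.6 kb away, was at 86.5 ± 3.48 and 92.2 ± 4.61 CPM in KO and control cells (adjusted p = 0.703). The imprinted genes Phlda2 and Slc22a18 had 0 counts in all 6 libraries, which allows up to 3 counts over these libraries. Mrgprg and Mrgpre, receptor genes on the Tnfrsf23 side, had 5 and 8 counts in KO libraries against 1 and 4 in control libraries. Nadsyn1, for an enzyme of NAD synthesis, was at 2.92 ± 0.71 CPM in KO and 1.91 ± 0.15 CPM in control cells (adjusted p = 0.446). The 3 most abundant neighbours gave no call either. The tetraspanin gene Cd81 was at 159 ± 23.7 CPM in KO and 121 ± 6.004 CPM in control cells (adjusted p = 0.115), the noncoding RNA gene Kcnq1ot1 at 106 ± 16.4 and 139 ± 51.4 CPM (adjusted p = 0.507) and the cortactin gene Cttn at 106 ± 8.12 and 101 ± 7.68 CPM (adjusted p = 0.80).

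A more distant neighbour, Shank2, a scaffold protein gene of synapses that starts 316 kb beyond Tnfrsf23, was singled out after its values were seen. It had 14, 12 and 9 counts in KO libraries against 3, 0 and 1 in control libraries, a ratio of 9.67 (exact 95% interval 3.46 to 37.5, counting error only). It was too low for the default filter. With no filter or with a minimum of 1 CPM in 3 libraries it was called higher (edgeR adjusted p = 0.00869 and 0.0392). Shank2 met that minimum through the KO libraries alone (3.72, 2.46 and 1.76 CPM, against 0.60, 0 and 0.18 CPM in control libraries). DESeq2 called none of the neighbours it tested. As Shank2 was singled out by its values, nothing is read from these calls.

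**Figure D3:**
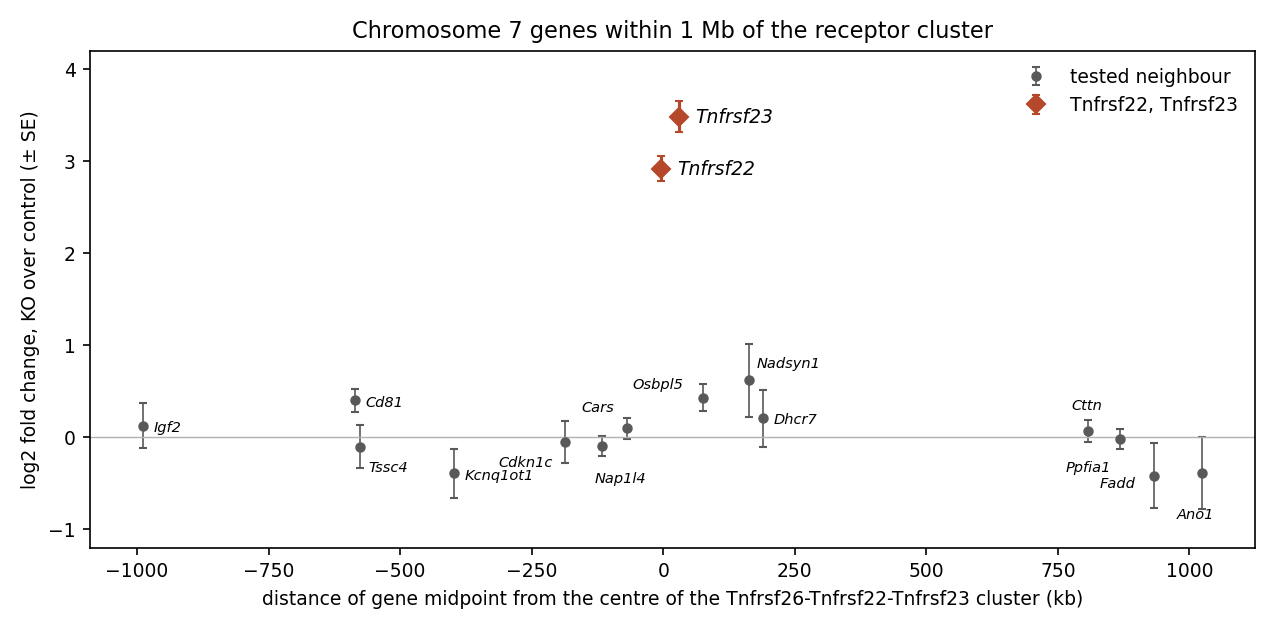
Log2 fold change, KO over control, with its SE, of Tnfrsf22, Tnfrsf23 and the 14 tested neighbours, against the distance of the gene midpoint from the centre of the cluster in kb. The neighbours lie between -0.42 and 0.62, while Tnfrsf22 and Tnfrsf23 are at 2.92 and 3.48.

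Other receptor genes of the TNF family moved less than Tnfrsf22 and Tnfrsf23, which were chosen with their high levels known. Of 24 listed, 11 had enough counts, 1 was called higher and none lower (at an unadjusted p under 0.05, 4 were higher and 0 lower), beside 2.22% of all tested genes called higher. All 11 had a positive fold change, as had 5712 of the 11224 tested genes, and their median log2 fold change was 0.48, against 0.01 over all tested genes. Groups did not overlap, with KO higher, in 5 of the 11, beside 12.8% of tested genes. The gene called was Eda2r, which encodes a receptor for the ectodysplasin isoform EDA-A2. Eda2r had 45.2, 52.2 and 43.4 CPM in KO libraries against 23.2, 28.8 and 16.1 CPM in control libraries. The gene rose in KO cells, by 1.05 on the log2 scale (SE 0.18, edgeR adjusted p = 0.006027), with every KO library above every control library. The call ended without KO library 1 (log2 fold change 1.08, adjusted p = 0.0642).

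The most abundant of the other receptor genes, Tnfrsf12a, for the receptor of TWEAK, was at 56.4 ± 8.79 CPM in KO and 47.7 ± 3.75 CPM in control cells (edgeR adjusted p = 0.376). Ngfr, for the p75 neurotrophin receptor, was at 28.1 ± 5.92 and 26.8 ± 6.40 CPM in KO and control cells (adjusted p = 0.908). Further receptor genes, chosen after their values were seen for what they encode, did not pass. Fas, for a death receptor, was at 6.08 ± 2.15 CPM in KO and 4.11 ± 0.84 CPM in control cells (adjusted p = 0.405). Tnfrsf1a, for a TNF receptor with a death domain, was at 26.6 ± 2.89 and 19.95 ± 1.28 CPM in KO and control cells (adjusted p = 0.165). Tnfrsf11b, for osteoprotegerin, a secreted receptor that also binds TRAIL, was at 2.42 ± 0.26 CPM in KO and 1.17 ± 0.44 CPM in control cells (adjusted p = 0.277). Its log2 fold change of 1.02 (SE 0.47) rested on low counts, 10, 12 and 11 in KO libraries against 4, 5 and 9 in control libraries.

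TNF ligand genes were mostly too low to test. Of 17 listed besides Tnfsf10, 4 had no count at all and 2 were tested, and neither was called by edgeR, DESeq2 or limma-voom (0 at an unadjusted p under 0.05), beside 2.83% of all tested genes. Tnfsf12, the gene of TWEAK, was at 2.72 ± 0.69 CPM in KO and 1.63 ± 0.33 CPM in control cells (edgeR adjusted p = 0.393). Eda, the gene of the ectodysplasins, was at 3.21 ± 0.66 and 2.98 ± 0.70 CPM in KO and control cells (adjusted p = 0.914).

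Of 32 genes that act downstream of death receptors, all of which were tested, 1 was called higher and none lower (at an unadjusted p under 0.05, 5 were higher and 1 lower). Over all tested genes 2.22% were called higher and 0.615% lower, and without adjustment 1132 of 11224 were higher and 857 lower at that p, so a single call among 32 is near the background. The 32 genes had a median log2 fold change of 0.08. The gene called was Bax, for a protein that permeabilises mitochondria. It rose to 21.5 ± 2.68 CPM in KO cells, against 12.8 ± 2.03 CPM in control cells (log2 fold change 0.74, SE 0.18, edgeR adjusted p = 0.0363). DESeq2 did not call Bax (adjusted p = 0.357), and with edgeR the call was lost on leaving out control library 1 (adjusted p = 0.066), control library 2 (0.188), or any of the KO libraries (0.0614 to 0.167). Cul3, which encodes a ubiquitin ligase scaffold, was at 149 ± 21.0 CPM in KO and 166 ± 7.64 CPM in control cells (edgeR adjusted p = 0.553). The anti-apoptotic gene Mcl1 was at 130.3 ± 6.06 and 123 ± 5.15 CPM in KO and control cells (adjusted p = 0.732).

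Genes of the complex that forms at TRAIL receptors, again chosen for what they encode after their values were seen, did not pass. Casp8, for the initiator caspase, was at 20.3 ± 1.41 CPM in KO and 19.4 ± 2.05 CPM in control cells (edgeR adjusted p = 0.871). Cflar, for its inhibitor cFLIP, was at 65.8 ± 3.56 and 57.4 ± 7.42 CPM in KO and control cells (adjusted p = 0.432). Fadd, for the adaptor, which also lies within 1 Mb of the cluster, was at 3.77 ± 0.72 and 4.99 ± 1.99 CPM (adjusted p = 0.579).

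**Figure D4:**
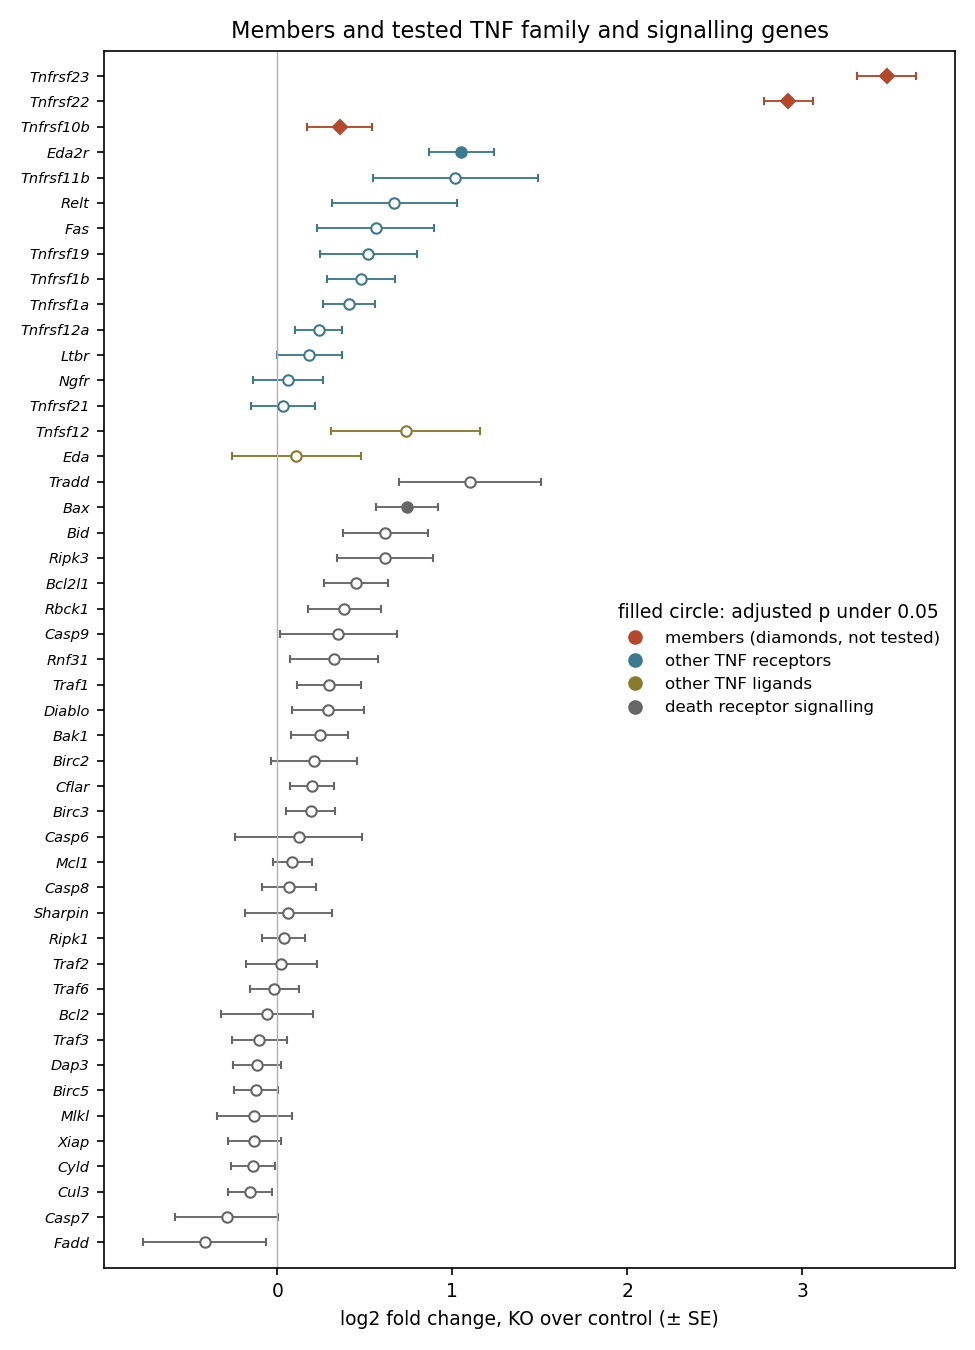
Log2 fold change, KO over control, with its SE. Diamonds are the 3 members of the group that passed the filter on low counts, for which no p-value is used. Circles are tested genes of the other TNF receptor, TNF ligand and death receptor signalling lists, filled where the adjusted p was under 0.05. Of the genes drawn, Eda2r and Bax are filled and the others from the lists are open, among them Tradd at 1.10. The plot leaves out 1 signalling gene that was not called.

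TNF receptors also signal through NF-kB, a transcription factor that induces its own inhibitors. Of 17 genes of NF-kB and its feedback, all tested, none was called by edgeR, DESeq2 or limma-voom (at an unadjusted p under 0.05 in edgeR, 2 were higher and 0 lower), beside 2.83% of all tested genes called in either direction, and the median log2 fold change was 0.12. The inhibitor gene Nfkbia was at 114 ± 17.4 CPM in KO and 104 ± 1.85 CPM in control cells (edgeR adjusted p = 0.636). Nfkb1 was at 144 ± 7.10 and 123 ± 20.4 CPM in KO and control cells (adjusted p = 0.391), and Nfkb2 at 81.9 ± 9.41 and 76.4 ± 6.05 CPM (adjusted p = 0.717).

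Apart from the decoys themselves, the ranked genes whose pattern over the 6 libraries was most like theirs lay on other chromosomes. The ranking covered 10409 tested genes and left out predicted genes, numbered clones and genes without a symbol. Genes too low for the default filter, among them Shank2, were not ranked. Likeness was measured as the root mean square difference of log2 CPM after centring each gene on its own mean, so that a small value means a similar pattern on that scale. A prior count of 2 was added before the log, which pulls the differences of low genes towards 0. Nearest to Tnfrsf22 were Pcdh17, a protocadherin gene on chromosome 14 (0.17), Rps4l, a ribosomal protein gene on chromosome 6 (0.18), Fkbp11 on chromosome 15 (0.19), Blnk on chromosome 19 (0.21) and the zinc finger gene Zfp37 on chromosome 4 (0.30). Tnfrsf23 came at place 7 in that order (0.31). Nearest to Tnfrsf23 were Rps4l (0.24), Cck on chromosome 9 (0.26), which was listed at 0 in the control libraries, Cbr3 on chromosome 16 (0.29), Tnfrsf22 (0.31) and Gstt2 on chromosome 10 (0.32). With 2 groups of 3 libraries this measure mostly reflects the difference between the groups. Pcdh17 was at 12.7 ± 1.32 CPM in KO and 1.77 ± 0.29 CPM in control cells, and Blnk at 33.3 ± 2.71 and 5.58 ± 0.35 CPM, so both were less abundant than Tnfrsf22 in KO and in control cells.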

How the data were processed

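RNA of muscle stem cells was measured in 3 Setdb1 KO and 3 control libraries. The authors deposited a single table of raw counts, whole numbers by Ensembl gene identifier. STAR, Salmon, DESeq2 1.34.0 and GRCm38 are named in the submitters' processing notes, but the sources used here do not give the counting tool, its strand setting or its annotation. The labels name both a stranded total RNA kit with ribosomal RNA removal and a SMARTER mRNA kit.

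Of 55487 genes, 55141 were given a symbol, and coordinates and exon lengths came from GENCODE M21. Counts were tested with edgeR 4.0.16 in R 4.3.3 (quasi-likelihood, robust, TMM, default filter on low counts, two-sided), with Benjamini-Hochberg adjustment over 11224 genes and a threshold of 0.05. The SE is the fold change divided by the root of F. CPM values use TMM-scaled library sizes. The procedure was tested on simulated data. No library was a copy of another in its group (chi-square per gene of at least 6.12).

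The members and lists were chosen with earlier results of these data known. Named genes were the members, Setdb1, called genes of each list and the 3 most abundant, the 4 nearest coding genes on each side, and the 5 genes most like each decoy. Genes outside this rule are marked in the text, and some items under it are not reported here. Alternatives were other scalings, filters, DESeq2 1.42.0, limma 3.58.1 (voom), a replicate block, structural RNA removal, each library left out, and control library 3 and KO library 1 left out together. Intervals and floors cover counting error only, as no molecular identifiers are named. Python 3.11.15 with SciPy 1.17.1 and matplotlib 3.10.9 served the other steps.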

Additional observations from a re-analysis of the deposited data

How the results depend on the processing

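Across 16 alternatives the log2 fold change stayed within 2.86 to 2.99 for Tnfrsf22, 3.34 to 3.57 for Tnfrsf23, 3.08 to 3.22 for the sum of the 3 clustered genes and 0.19 to 0.56 for Tnfrsf10b, and none of these 4 values changed sign. Over all genes (249 higher and 69 lower in KO), DESeq2 called 147 higher and 37 lower, lower genes were 138 with no filter on low counts and 106 when control library 3 was left out together with KO library 1, and leaving out 1 library gave 133 to 255 higher (133 when KO library 1 was left out, 158 for KO library 2 and 142 for control library 2) and 15 to 90 lower (19, 22 and 43 for KO libraries 1, 2 and 3, and 38 and 15 for control libraries 1 and 2). Of the genes that act downstream of death receptors, the 1 called higher (Bax) became 0 with library totals alone, with DESeq2 and when control library 3 was left out together with KO library 1, and 0 to 1 with 1 library left out. Among the neighbours, the 0 called higher became 1 (Shank2) with no filter and with a minimum of 1 CPM, and 0 to 1 with 1 library left out (1 without control library 1). Of the other TNF receptors, 0 to 1 were called with 1 library left out. The cause of these changes was not tested. Fitting the replicate number as a block gave 206 higher and 41 lower genes and 2.92 and 3.48 for Tnfrsf22 and Tnfrsf23. Same-numbered libraries deviated from their group means with correlations of 0.14, -0.09 and -0.06. These values do not settle whether the samples were paired, and the labels give them only a shared number. Tnfrsf26 and Tnfsf10 failed the default filter. Where it was changed or DESeq2 was used, the log2 fold change of Tnfrsf26 was 3.31 (SE 0.88) with no filter, 3.33 (SE 0.81) with a minimum of 1 CPM and 3.48 (SE 1.29) with DESeq2, and Tnfsf10 stayed at or under the floor of 3 counts. Tnfrsf26 met the minimum of 1 CPM through the KO libraries alone, and its 3 control counts were at that floor. These values of Tnfrsf26 are therefore a description and no check on its rise.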
